A study of Mus musculus with 18 samples.

Results

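The 4 mature miRNAs miR-10a-5p, miR-10b-5p, miR-196a-5p and miR-196b-5p are the 5p products of hairpins that lie inside the mouse Hox gene clusters. They were taken by name from a small-RNA table of 2042 miRNA names. The table covers C2C12, a mouse myoblast line that differentiates when serum is lowered. In miTRAP, a bait RNA tagged with MS2 hairpins is fixed to a resin and incubated with lysate, and the small RNA it retains is eluted and sequenced. The study used it to find miRNAs that bind the transcript of MRTF-A (gene Mrtfa), a coactivator of serum response factor. There were 18 libraries in 6 groups of 3. Undifferentiated C2C12 (titles "Undiff", growth in 10% serum) and differentiated C2C12 (titles "Diff", 7 days in 2% serum) each gave input RNA, eluates of the MRTF-A bait ("MRTF-A miTRAP") and eluates of an MS2 control ("MS2control miTRAP"). All groups are the same unmodified line, and the labels write the same tissue word, myoblasts, for both states. Whether the 3 libraries of a group are separate cultures is not stated, so the p-values describe library-to-library spread, part or all of which may be technical. The 3 are named A, B and C.

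Hox clusters encode transcription factors that set position along the body axis, and the miR-10 and miR-196 genes sit between or within those genes and tend to be expressed with their neighbours. Mature miRNAs guide Argonaute to mRNAs, mainly through the seed, bases 2 to 8 from the 5′ end, so miRNAs with one seed are treated as a family. miR-196 is best known for repressing Hox mRNAs, among them Hoxb8, which it can direct to cleavage, and miR-10b for repressing Hoxd10.

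The 4 mature sequences are shown because they fall into 2 seed families. Capitals mark the seed, and sequences are from RefSeq (GRCm38.p6), where all 4 names were matched.
mmu-miR-10a-5p: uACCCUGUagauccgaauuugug
mmu-miR-10b-5p: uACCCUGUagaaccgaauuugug
mmu-miR-196a-5p: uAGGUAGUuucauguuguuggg
mmu-miR-196b-5p: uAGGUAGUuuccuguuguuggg
Counted from 1 at the 5′ end, the miR-10 pair differs by U12A and the miR-196 pair by A12C, with the base of the a member first. Both differences lie outside the seed. Each seed was carried by only 2 of the 1603 table names that have a RefSeq sequence. With 1 base between the members of a pair, a misread base could move a read from one name to the other, and the counting of reads that match several names is not given in the sources used here.

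Their hairpins lie in all 4 Hox clusters (GRCm38). Mir10a, at chr11:96317165-96317274 on the plus strand, is intergenic in the Hoxb cluster, 992 bp from Hoxb4. Mir10b, at chr2:74726070-74726137 on the plus strand, lies in introns of Hoxd3 and Hoxd4. miR-196a-5p has 2 hairpins with the same mature sequence, so its reads cannot be assigned to either. Mir196a-1 (chr11:96265164-96265265, plus strand) is intergenic in the Hoxb cluster, 6191 bp from Hoxb9, and Mir196a-2 (chr15:102973350-102973434, plus strand) lies in an intron of Hoxc5 between Hoxc10 and Hoxc9. Mir196b, at chr6:52230081-52230165 on the minus strand, is exonic in 2 annotated transcripts of Hoxa9.

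Depth set how much each kind of library could show. Inputs held 294112 to 860828 reads, bait eluates 107165 to 544504, and MS2 control eluates only 15562 to 39695. One read was worth 1.66 to 3.05 CPM (the read count after the authors' scaling to a common library size) in inputs, 3.33 to 15.3 in bait eluates and 11.9 to 34.3 in MS2 eluates. As a check of the labelled state, the summed level of 6 skeletal-muscle miRNAs was 431 to 3441 CPM in undifferentiated and 48696 to 77883 CPM in differentiated input, with miR-1a-3p, miR-208b-3p and miR-499-5p at 0 in the former. The 15 measured markers of blood, epithelial, neural and endothelial cells summed to 773 to 1181 CPM in undifferentiated and 94.6 to 158 CPM in differentiated input. Most of the former was the neural pair miR-9-5p and miR-129-5p, while miR-124-3p was at 0. The authors' scaling factors were 0.341 to 0.634 in bait eluates and 1.24 to 2.37 in MS2 eluates. A fold between kinds of library therefore rests on that scaling, and values from plain library totals are given where they change a call.

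The members made up a small, fairly even part of the cells' miRNA. Together they took 0.308% ± 0.0346 (SD, n = 3) of undifferentiated and 0.260% ± 0.0102 (SD, n = 3) of differentiated input reads. Over all 18 libraries, miR-196a-5p had 6122 reads, miR-196b-5p 2241, miR-10a-5p 1743 and miR-10b-5p 24. The levels of each name in each library are plotted by group.

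**Figure D1:**
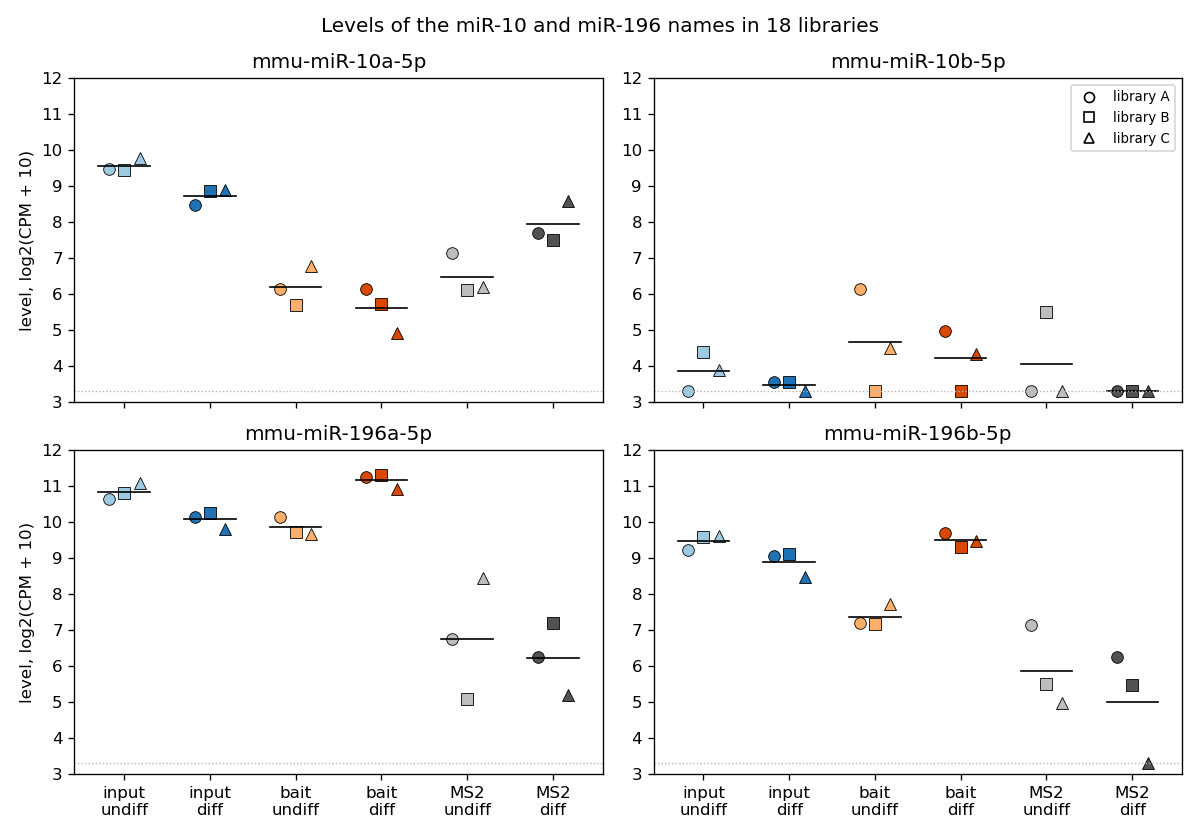
Level of each name, log2(CPM + 10), in 18 libraries by group; points are libraries A (circle), B (square) and C (triangle), bars are group means, and the dotted line is a count of 0. In differentiated cells both miR-196 names are higher in bait than in MS2 eluates and miR-10a-5p is lower. In undifferentiated cells miR-196b-5p in bait eluates lies below its input. miR-10b-5p lies above the line in 9 of the 18 libraries, at 61.3 CPM at most.

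In input, 2 of the 3 members that could be tested were lower after differentiation, against a background in which 62.3% of 313 names were called (50 higher, 145 lower, median log2 fold change -0.64). miR-10b-5p did not pass the filter on low reads in this or any other comparison. For miR-10a-5p, undifferentiated inputs A, B and C held 706, 689 and 880 CPM and differentiated inputs 345, 455 and 467 CPM. The groups did not overlap, and the log2 fold change was -0.83 ± 0.31 (SE, adjusted p = 0.0308, limma with Benjamini-Hochberg adjustment, as for every adjusted p here unless another tool is named). For miR-196a-5p the values were 1608, 1775 and 2177 CPM before and 1129, 1219 and 895 CPM after, again without overlap, a log2 fold change of -0.77 ± 0.30 (adjusted p = 0.0409). For miR-196b-5p they were 594, 767 and 770 CPM before and 525, 549 and 348 CPM after, a difference of -0.59 ± 0.32 that missed the threshold (adjusted p = 0.125, 95% interval -1.28 to 0.10).

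These input differences were those of the typical name. Relative to the median of all names tested, they were -0.20 for miR-10a-5p, -0.14 for miR-196a-5p and 0.05 for miR-196b-5p. With normalisation factors computed within the 6 inputs, the calls split 88 higher to 90 lower, miR-10a-5p stood at -0.16 (adjusted p = 0.585), miR-196a-5p at -0.10 (adjusted p = 0.730) and miR-196b-5p at 0.08 (adjusted p = 0.805). Both calls were also lost without differentiated library A or B or undifferentiated library C, and that of miR-196a-5p without differentiated library C (adjusted p 0.0707 to 0.139 over those fits). In the authors' deposited table the log2 fold changes were -0.85 (FDR 0.141), -0.78 (FDR 0.670) and -0.58 (FDR 0.612) in the same order. In bulk RNA, fewer cells holding a miRNA and less of it per cell cannot be told apart.

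Between bait and control eluates of differentiated cells, both miR-196 names were higher with the bait and miR-10a-5p was lower. The 3 bait libraries of that state held 2446, 2522 and 1929 CPM of miR-196a-5p, and the MS2 libraries 66.4, 137 and 27.1 CPM. All bait libraries lay above all MS2 libraries, whose values rest on 2, 4 and 1 reads. The log2 fold change was 4.94 ± 0.72 (adjusted p = 4.83e-05). For miR-196b-5p the bait libraries held 820, 623 and 710 CPM, and the MS2 libraries 66.4, 34.3 and 0 CPM.

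That control level of miR-196b-5p comes from 3 reads in all, and the fitted log2 fold change was 4.48 ± 0.74 (adjusted p = 0.000124). In the eluates outside the differentiated bait group, miR-196b-5p held at most 202 CPM. It did not pass the filter on low reads when only the undifferentiated eluates were fitted. Its entry into the test thus leaned on the group where it was high, which is one side of this comparison. With no filter it kept its call. From the pooled reads, 513 with the bait and 3 with the control, the ratio at the authors' scaling was 22.7 (95% exact binomial interval 7.73 to 110.5). That interval, like the others on pooled reads, covers counting error only, and sequenced reads are not independent molecules. For miR-196a-5p the pooled ratio was 32.1 (interval 15.6 to 80.0, from 1693 and 7 reads). Without MS2 library A or C in turn, the fold change of miR-196b-5p was 5.10 and 3.63, and it kept its call. With only the MS2 libraries that hold few human-named reads, the control arm is library C alone, whose spread is then assumed to be that of the other groups, and the fold changes were 5.95 for miR-196a-5p and 6.18 for miR-196b-5p.

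miR-10a-5p went the other way in the same libraries. The bait libraries held 61.0, 43.3 and 20.6 CPM (14, 13 and 4 reads), and the MS2 libraries 199, 172 and 379 CPM (6, 5 and 14 reads). Every bait library lay below every MS2 library, although the bait libraries were deeper. The log2 fold change was -2.33 ± 0.54 (adjusted p = 0.00158). It remained negative in all 17 alternatives, from -3.56 to -1.67, and called in those with more than 1 library in each group. In the eluates outside the differentiated MS2 group, miR-10a-5p held at most 131 CPM. It did not pass the filter on low reads when only the undifferentiated eluates were fitted. Its entry into the test thus leaned on the group where it was high, which is one side of this comparison. With no filter the fold change was -2.33 (adjusted p = 0.00454). Hence 2 of the 3 tested members were called higher and 1 lower in differentiated cells, where 79.3% of 169 names were called (97 higher, 37 lower, median 2.37) and library totals gave 73 higher and 49 lower. Relative to that median, miR-196a-5p stood at 2.57, miR-196b-5p at 2.11 and miR-10a-5p at -4.70. Over the alternatives, each relative to its own median, these ranged from 2.31 to 4.80, from 1.51 to 4.39 and from -5.45 to -2.47.

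In undifferentiated cells only miR-196a-5p was called, among 60.4% of 169 names (73 higher, 29 lower, median 1.16). Its bait libraries held 1135, 847 and 807 CPM and its MS2 libraries 98.5, 23.7 and 342 CPM, from 3, 2 and 16 reads. The groups did not overlap, and the log2 fold change was 3.09 ± 0.72 (adjusted p = 0.00232). It was 3.94 without MS2 library C, the highest, and 2.25 without MS2 library B, the lowest. With library totals in place of the authors' scaling, it was 1.32 (adjusted p = 0.133), and the calls over all names split 55 higher to 63 lower.

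miR-196b-5p in undifferentiated cells held 138, 133 and 202 CPM with the bait and 131, 35.6 and 21.3 CPM with the control. The bait values lay just above the highest control value, and the log2 difference was 1.49 ± 0.74 (adjusted p = 0.0971, 95% interval -0.12 to 3.10). Control library A, with 4 of the 8 control reads, was the one close to the bait, and without it the difference was 2.12 (adjusted p = 0.0272), while with library totals it was -0.16 (adjusted p = 0.869). That library is also one of 3 MS2 libraries with 0.755% to 0.930% of reads on human-named rows, against 0.0900% to 0.115% in the other MS2 libraries, and the part this played was not tested. miR-10a-5p held 61.3, 41.5 and 101 CPM with the bait and 131, 59.3 and 64.0 CPM with the control, and the groups overlapped. Its log2 difference was -0.28 ± 0.54 (adjusted p = 0.679, 95% interval -1.45 to 0.89), and with library totals it was -1.87 (adjusted p = 0.0206).

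**Figure D2:**
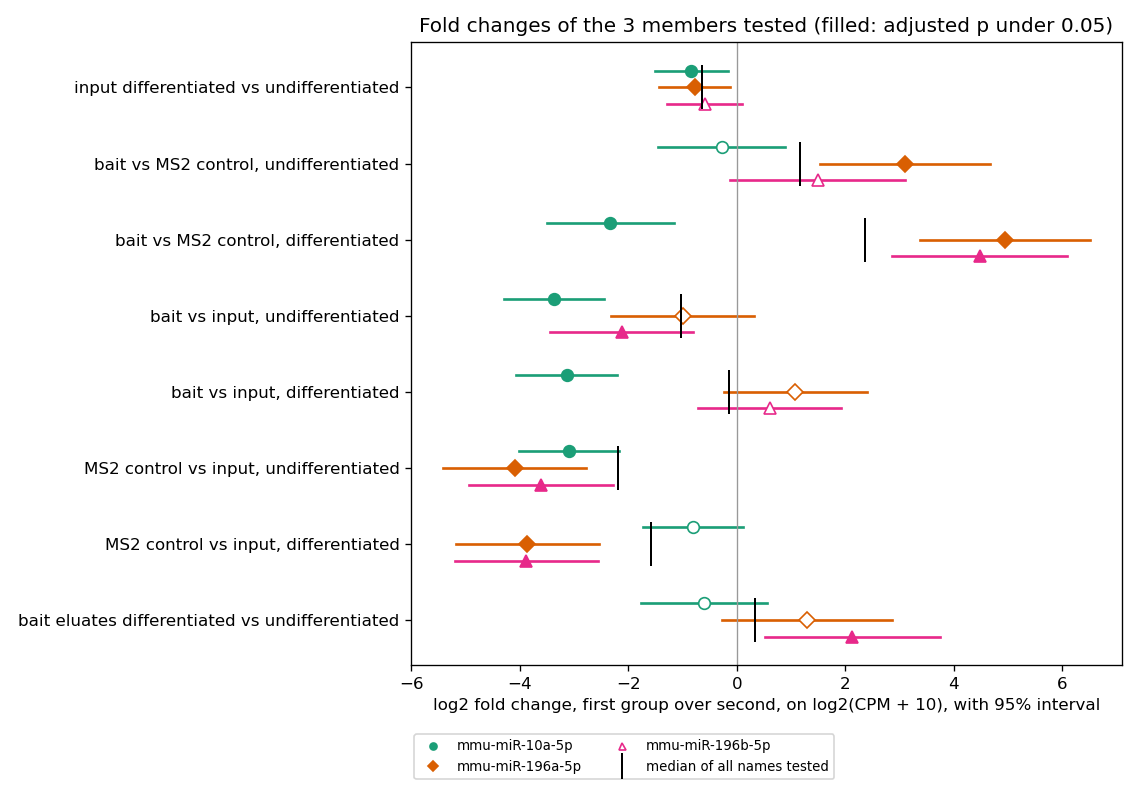
Log2 fold change, first group over second, with its 95% interval for the 3 members tested in 8 comparisons; filled markers have an adjusted p under 0.05 and the black ticks are the median of all names tested. In both comparisons of bait with MS2 control, miR-196a-5p lies to the right of the median and miR-10a-5p to its left. miR-196b-5p lies to the right in differentiated cells. In undifferentiated cells it is only 0.33 from the median, which falls inside its interval.

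Whether bait against control differed between the states was tested directly, and 13.0% of 169 names were called (14 higher, 8 lower; 11 to 21 with RLE factors, a median-ratio scaling). No member was. The log2 difference between states was 2.99 ± 1.05 for miR-196b-5p (adjusted p = 0.0732, 95% interval 0.71 to 5.27), 1.84 ± 1.02 for miR-196a-5p (adjusted p = 0.246, interval -0.37 to 4.06) and -2.05 ± 0.76 for miR-10a-5p (adjusted p = 0.0841, interval -3.71 to -0.40). At an unadjusted p under 0.05, 50 of the 169 names differed, against 22 after adjustment, and edgeR on the reads called 0. Without differentiated MS2 library A, miR-196b-5p was called (3.61, adjusted p = 0.0461). For miR-196a-5p the difference was 1.00 without undifferentiated MS2 library C and 2.69 without library B.

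Set against the cells' own RNA, the bait eluates held far less miR-10a-5p than the input in both states. In undifferentiated cells the log2 fold change of bait over input was -3.37 ± 0.44 (adjusted p = 3.64e-06), and in differentiated cells -3.14 ± 0.44 (adjusted p = 7.81e-06). The share of names called was 68.5% in the former (71 higher, 138 lower, median -1.04) and 62.0% in the latter (95 higher, 94 lower, median -0.14), each over 305 names. Library totals gave 50 higher to 159 lower and 69 higher to 125 lower, and RLE factors 91 to 96 and 89 to 96. The fall of miR-10a-5p was called in all 16 alternatives of each state, from -4.07 to -2.12 and from -4.12 to -2.38. Behind these values stand 17 bait reads beside 1011 input reads in undifferentiated and 31 beside 647 in differentiated cells.

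The miR-196 names differed from input less. miR-196b-5p was lower with the bait in undifferentiated cells, at -2.12 ± 0.62 (adjusted p = 0.00631), and stood at -0.86 (adjusted p = 0.333) with RLE factors. In differentiated cells its difference was 0.61 ± 0.62 (adjusted p = 0.402, interval -0.71 to 1.93), and with library totals -0.56. miR-196a-5p gave -0.99 ± 0.62 in undifferentiated (adjusted p = 0.168, interval -2.31 to 0.33) and 1.08 ± 0.62 in differentiated cells (adjusted p = 0.141, interval -0.23 to 2.40). With library totals the latter was -0.10 (adjusted p = 0.885) and with RLE factors the former was 0.29 (adjusted p = 0.739). With library totals miR-196a-5p in undifferentiated cells was at -1.9 and called lower, as were 159 of the 305 names. So at the authors' scaling, of 3 members tested, 2 were called lower with the bait in undifferentiated cells and 1 in differentiated cells, where 138 and 94 of all 305 names were.

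At the authors' scaling the MS2 control eluates held less of the 3 tested members than input, by group means. In undifferentiated cells, where 71.1% of 305 names were called (26 higher, 191 lower, median -2.19; 54 to 122 with RLE factors), all 3 tested members were lower. The log2 fold changes were -4.09 ± 0.62 for miR-196a-5p (adjusted p = 1.98e-05), -3.61 ± 0.62 for miR-196b-5p (adjusted p = 6.68e-05) and -3.09 ± 0.44 for miR-10a-5p (adjusted p = 9.26e-06). With RLE factors they were -2.26, -1.82 and -1.25, and in DESeq2 -1.82, -1.84 and -1.36, in the same order, all still called. In differentiated cells 69.2% were called (47 higher, 164 lower, median -1.58; 70 to 88 in DESeq2). miR-196a-5p was at -3.86 ± 0.62 (adjusted p = 4.27e-05) and miR-196b-5p at -3.88 ± 0.62 (adjusted p = 4.18e-05), and over the 17 alternatives they ranged from -4.87 to -3.06 and from -5.57 to -2.71, the lowest values with control library C alone.

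miR-10a-5p in differentiated control eluates, by contrast, was not called against its input. The MS2 libraries held 199, 172 and 379 CPM beside 345, 455 and 467 CPM in input. Libraries A and B lay below all inputs, and library C overlapped them. The log2 difference was -0.80 ± 0.44 (adjusted p = 0.115, interval -1.73 to 0.12), and -1.14 (adjusted p = 0.0447) without MS2 library C. The reads behind it number 25 in 3 libraries. Leaving out single MS2 libraries also moved the miR-196 values against input by over 1.5 times. For miR-196a-5p in undifferentiated cells they were -3.24 without library B and -4.93 without library C, and for miR-196b-5p -4.24 without library A. In differentiated cells miR-196b-5p was at -4.50 without library A and -3.03 without library C, and all of these remained called.

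Between the states, miR-196b-5p was higher in the bait eluates of differentiated cells, a call that 11 of 16 alternatives lost. Bait libraries held 138, 133 and 202 CPM before and 820, 623 and 710 CPM after, with no overlap, for a log2 fold change of 2.13 ± 0.74 (adjusted p = 0.0393). This was called in a comparison with 38.5% of 169 names called (40 higher, 25 lower; 33 to 37 with RLE factors). The call was lost without any 1 of the 6 bait libraries A, B or C of either state (2.03 to 2.31, adjusted p 0.0679 to 0.109). It was also lost with no filter, library totals and RLE factors. Entry of miR-196b-5p into this test leaned on the differentiated bait libraries, the higher side of the contrast. miR-196a-5p also did not overlap, with 1135, 847 and 807 CPM before and 2446, 2522 and 1929 CPM after, but its difference of 1.30 ± 0.72 missed the threshold (adjusted p = 0.173, interval -0.26 to 2.87). miR-10a-5p was at -0.61 ± 0.54 (adjusted p = 0.406).

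The same contrast taken relative to input was added after the values were seen. The difference of bait against input between the states was 2.72 ± 0.88 for miR-196b-5p (adjusted p = 0.0398), 2.08 ± 0.88 for miR-196a-5p (adjusted p = 0.102) and 0.23 ± 0.62 for miR-10a-5p (adjusted p = 0.846). Over all names 20.3% of 305 were called, 51 higher and 11 lower, and RLE factors gave 4 higher and 17 lower. The call for miR-196b-5p was lost without any 1 of the 12 libraries A, B or C of the 4 groups (2.52 to 2.90, adjusted p 0.0513 to 0.0957).

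A ratio of 2 names within a library needs no scaling between libraries. It was computed after the values were seen, and serves here to compare libraries, not to weigh one miRNA against the other. Inputs held 1.92 to 3.27 reads of miR-196a-5p per read of miR-10a-5p. Bait eluates held 8.00 to 20.4 in undifferentiated and 40.1 to 93.8 in differentiated cells. The MS2 eluates held 0.400 to 5.33 and 0.0714 to 0.800.

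In both states the bait libraries therefore lay above all inputs and all MS2 libraries, and the differentiated bait libraries above the undifferentiated ones. Each of these comparisons gave an exact 2-sided permutation p = 0.1, the smallest that 3 against 3 libraries allow (adjusted p = 0.133 over 8 comparisons), so the design cannot pass 0.05 here. On the log2 scale the bait exceeded the control by 3.63 in undifferentiated and 7.82 in differentiated cells. These gaps rest on few reads. Bait libraries A, B and C held 4, 5 and 8 reads of miR-10a-5p in undifferentiated and 14, 13 and 4 in differentiated cells. The differentiated MS2 libraries held 2, 4 and 1 reads of miR-196a-5p. Between input states the ratio differed by 0.07, with overlap (exact permutation p = 0.8).

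**Figure D3:**
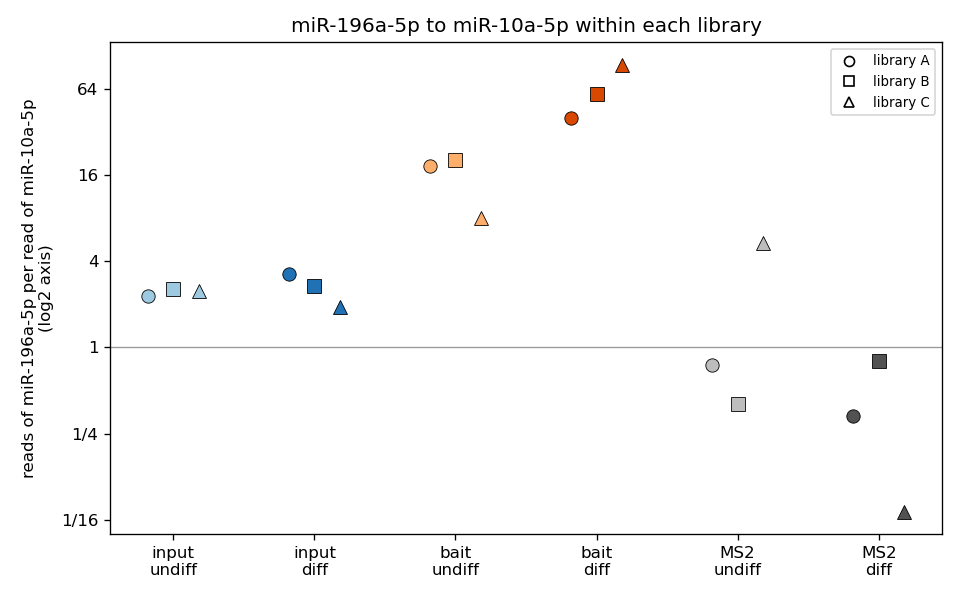
Reads of miR-196a-5p per read of miR-10a-5p in each of the 18 libraries, on a log2 axis, by group; the line marks equal reads. Inputs lie between 1.92 and 3.27, all 6 bait libraries lie above them, and 5 of the 6 MS2 libraries lie below 1. The MS2 points rest on 1 to 16 reads of miR-196a-5p.

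Within the miR-196 pair, which shares 1 seed, the bait eluates leaned to miR-196a-5p. It made up 72.2% ± 2.13 (SD, n = 3) of the pair's reads in undifferentiated input and 85.2% ± 4.70 in bait, and 69.7% ± 1.97 in differentiated input and 76.1% ± 3.69 in bait. Bait libraries lay above inputs in both states, by 13.0 and 6.33 percentage points (exact permutation p = 0.1 each, the smallest possible, adjusted p = 0.35 over 7 comparisons, chosen after the values were seen). The lowest differentiated bait library, at 73.1%, was close to the highest differentiated input, at 72.0%. Against the MS2 eluates the share overlapped in both states (40.0% to 94.1% and 50.0% to 100%, from 5 to 17 and 1 to 5 reads a library). Between the states the input share differed by -2.51 points, and the groups overlapped (exact permutation p = 0.2).

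Within the miR-10 pair nearly all input reads were miR-10a-5p. miR-10b-5p had 9 of 1667 reads in inputs, or 0.540% (95% exact binomial interval 0.247% to 1.02%), 12 of 60 in bait eluates, or 20.0% (10.8% to 32.3%), and 3 of 40 in MS2 eluates, or 7.50% (1.57% to 20.4%). The reads were unevenly spread. Undifferentiated bait libraries A, B and C held 4, 0 and 1 of them, differentiated bait libraries 5, 0 and 2, and 9 of the 18 libraries held any. At 0 to 5 reads a library, the level of miR-10b-5p entered no fit. From pooled reads at the authors' scaling, bait over input was 7.45 in differentiated cells (95% exact binomial interval 1.42 to 73.5, from 7 and 2 reads) and 3.48 in undifferentiated cells (0.872 to 12.8, from 5 and 7 reads). Bait over control was 1.02 in undifferentiated cells (0.198 to 6.55, from 5 and 3 reads), and in differentiated cells there were 7 bait reads and 0 control reads. Control over input was 3.43 in undifferentiated cells (0.572 to 15.0, from 3 and 7 reads), and in differentiated cells there were 0 control reads and 2 input reads.

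Ranked over the 6 groups by mean level, miR-196a-5p and miR-196b-5p shared 1 order. It ran from differentiated bait (2299 and 717 CPM) through undifferentiated input (1853 and 710 CPM), differentiated input (1081 and 474 CPM), undifferentiated bait (930 and 158 CPM) and undifferentiated control (155 and 62.7 CPM) to differentiated control (76.9 and 33.6 CPM). Differentiated bait overlapped undifferentiated input for both names, as did the 2 control groups each other, and differentiated input overlapped undifferentiated bait for miR-196a-5p. miR-10a-5p ran from undifferentiated input (758 CPM) through differentiated input (422 CPM), differentiated control (250 CPM), undifferentiated control (84.9 CPM) and undifferentiated bait (67.9 CPM) to differentiated bait (41.6 CPM). Differentiated input overlapped differentiated control, and the 3 lowest groups overlapped their neighbours. These orders hold at the authors' scaling. By share of reads, differentiated bait came after both input groups for both miR-196 names, with means of 0.132% and 0.0416% beside 0.171% and 0.0663% in undifferentiated input and 0.142% and 0.0620% in differentiated input.

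The 3p arms of 3 members gave few reads. In inputs the Mir196a hairpins gave 58 reads of a 3p name beside 4161 of the 5p name, all of them miR-196a-2-3p, whose hairpin is the one in the Hoxc cluster. Mir196b gave 15 beside 1676, and Mir10a 1 beside 1658. Mir10b gave 2 beside 9, too few to place its 3p share. In bait eluates 3 reads of miR-196a-2-3p and none of the other 3p arms were found.

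The 3p arm of the remaining Hox-cluster hairpin in the table, miR-615-3p from an intron of Hoxc5 (chr15:103014910-103015001), was highest in the MS2 eluates. Its mean level was 371 CPM in undifferentiated and 164 CPM in differentiated input, 2371 and 2349 CPM in bait eluates, and 154602 and 172695 CPM in MS2 eluates. It took 28.4% and 24.4% of MS2 reads, and its log2 fold change of bait over control was -6.03 and -5.96 (adjusted p = 1.68e-07 and 2.06e-07). Of the 7 other Hox-cluster names listed, it alone passed the filter among the eluates.

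Sequence relatives of each family were set beside it, in lists picked with earlier results of these data known. The let-7 guide strands hold the miR-196 seed letters, AGGUAGU, 1 base further from their 5′ end, in all but let-7e-5p, which holds AGGUAG. Of 9 names, 7 were higher with the bait than with the control in undifferentiated cells and 9 in differentiated cells (medians 4.75 and 5.03, beside 1.16 and 2.37 over all names, of which 60.4% and 79.3% were called in either direction, 73 and 97 of 169 higher). Against input, 7 and 8 let-7 names were called higher with the bait in the respective states, where 71 and 95 of all 305 names were. In undifferentiated cells miR-98-5p was called lower (-1.90, adjusted p = 0.0387). No miR-196 name was called higher. At the authors' scaling all differentiated bait libraries lay above all differentiated inputs for both miR-196 names. How many of all names separate in this way was not counted. By share of reads, miR-196a-5p overlapped (0.122% to 0.139% in bait, 0.132% to 0.153% in input). miR-196b-5p lay lower in bait (0.0343% to 0.0455%) than in input (0.0516% to 0.0713%). miR-99a-5p, miR-99b-5p and miR-100-5p share with miR-10a-5p a stretch of 10, 5 and 11 bases. It starts at base 7 of miR-10a-5p and base 6 of the other names, so within the seed of each. Of these 3, 2 were lower with the bait in undifferentiated cells and 3 in differentiated cells (medians -1.92 and -2.94), where 29 and 37 of all 169 names were. miR-10a-5p itself was called lower in differentiated cells and not in undifferentiated cells.

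Letter matches to the seeds were searched on the sense strand of the 1004-base 3′UTR of mouse Mrtfa (GENCODE vM21, GRCm38, chr15:81012281-81013284, minus strand). The sequence and species of the bait insert are not given in the labels. Neither the miR-196 match CTACCT nor the miR-10 match CAGGGT (the complement of bases 2 to 7) occurs there, and the longer ACTACCT and ACAGGGT contain them. Of 10217 genes with a 3′UTR of at least that length, 21.2% hold CTACCT and 30.7% CAGGGT in their first 1004 bases. Of the 1603 names with a sequence, 32.1% have a match of 6 letters or more in the Mrtfa 3′UTR.

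The let-7 match TACCTC, which overlaps CTACCT by all but its last base, occurs at 2 places in it, at UTR bases 454 to 459 and 526 to 531, and 19.0% of the same genes hold it. The 2 places are shown, with the match in capitals, to set the let-7 letters beside those of miR-196.
first place: agtctgtatagatgtataTACCTCtat
second place: gtgggaaatgggtgtggtTACCTCcac
These are matches of letters in one annotated transcript and not measured sites.

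The alternatives plotted for the main comparisons show where a value rests on the scaling. The direction of miR-196a-5p and miR-196b-5p over the control in differentiated cells, and that of miR-10a-5p under both control and input there, was the same in every alternative run. In input the values came as near to 0 as -0.13 for miR-10a-5p and -0.08 for miR-196a-5p, and miR-196b-5p reached 0.09. Bait against input crossed 0 for miR-196a-5p in both states and for miR-196b-5p in differentiated cells, while miR-196b-5p in undifferentiated cells ranged from -2.95 to -0.86.

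**Figure D4:**
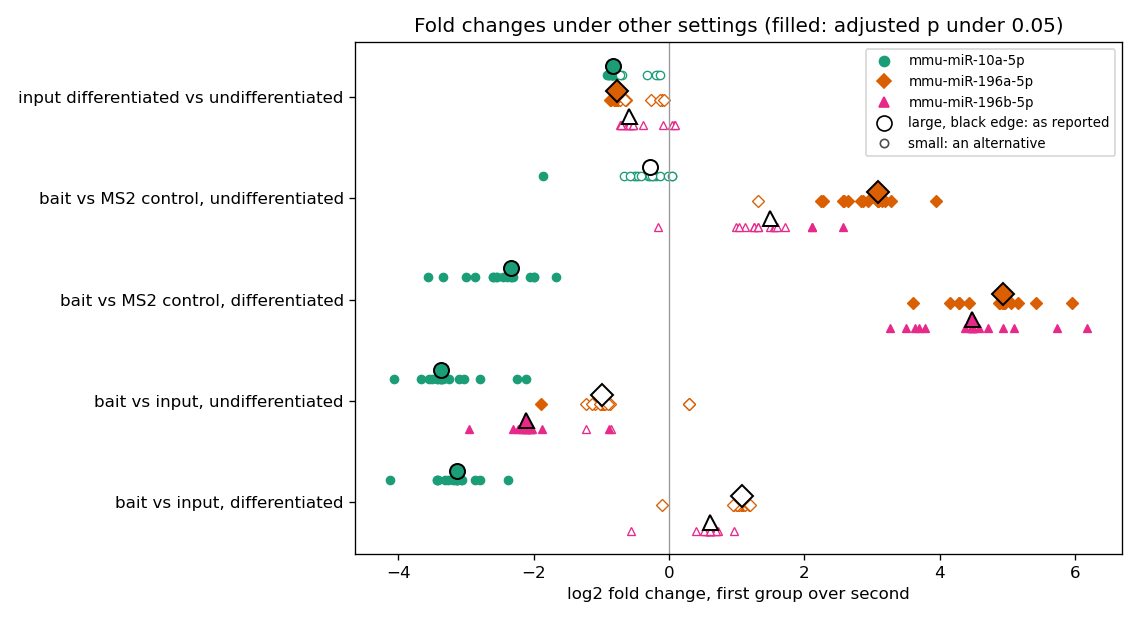
Log2 fold changes of the 3 tested members in 5 comparisons as reported (large, black edge) and under each alternative (small); filled markers have an adjusted p under 0.05. In differentiated cells the miR-196 names lie between 3.27 and 6.18 over the control, where 6.18 rests on 1 control library, and miR-10a-5p between -3.56 and -1.67.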

How the data were processed

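Small RNA of C2C12 cells was sequenced in 18 libraries (6 groups of 3, 50 bp reads). Per the submitters' processing notes, the tools were edgeR 3.18.1, featureCounts 1.4.6, Bowtie2 2.0.13 and cutadapt 1.4.2, with GRCm38/mm10. The deposited signal is a normalised CPM by the authors. Its values were whole multiples of 1 read in every library (100.0% within 0.01 read), so whole reads were recovered, and the factors equal TMM factors over all 18 libraries within 4.88e-15. The authors also deposited log2 fold changes, p-values and FDR values, of which a few are quoted and none was used in a test.

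The members and lists were chosen with earlier results of these data known. The values named are those of the 4 members, the other Hox-cluster names, miR-99/100, let-7 and the most similar names by correlation. limma 3.58.1 (trend, R 4.3.3) was fitted to log2(CPM + 10) over all names kept by filterByExpr, with Benjamini-Hochberg adjustment over those names and a threshold of 0.05. The inputs (6 libraries), eluates (12) or all 18 were fitted together. DESeq2 1.42.0 and edgeR 4.0.16 run on the recovered reads, other pseudocounts (1 and 50), scalings and filters, sums of each pair, and fits without each library were alternatives. Ratios within libraries had exact permutation tests, and pooled reads exact binomial intervals. Tables and figures were made with matplotlib 3.10.9, scipy 1.17.1, pandas 2.3.3 and numpy 2.4.6 in Python 3.11.15.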

Additional observations from a re-analysis of the deposited data

Results flagged for a closer look

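For miR-196b-5p, bait against input differed between the states by 2.72 ± 0.88 on the log2 scale (limma, adjusted p = 0.0398, 20.3% of 305 names called). All 3 differentiated bait libraries (623 to 820 CPM) lay above the differentiated inputs (348 to 549 CPM), and all 3 undifferentiated bait libraries (133 to 202 CPM) below the undifferentiated inputs (594 to 770 CPM). This order holds at the authors' scaling: by share of reads the differentiated bait libraries (0.0343% to 0.0455%) lay below the differentiated inputs (0.0516% to 0.0713%), and with library totals the log2 fold change of bait over input there was -0.56. The call was lost in 17 of 22 alternatives, and the direction was kept in all 22.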

How the results depend on the processing

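No paired analysis was possible because the table's columns do not carry the replicate numbers of the labels. Of 564 alternative values, 474 were counted as kept, 50 lost a call, 23 gained one and 17 fold changes changed sign. For a fold change, kept meant the same direction and side of the threshold. With a pair summed, the reads of both names were tested as 1 row, and that value was set beside each name's own. In undifferentiated bait eluates the miR-196 sum held 240 reads of miR-196a-5p and 41 of miR-196b-5p. For the share of miR-196a-5p in its pair, which has no threshold, it meant a move smaller than the larger SD of the 2 groups. The share in differentiated bait minus MS2 control, -0.603 points with all libraries, was counted as kept though it ran from -13.9 to 11.1. Except where fewer libraries or more names entered, the cause of the changes was not tested. The 3 members' calls of bait over MS2 control in differentiated cells kept direction and call in all 17 alternatives each, as did the miR-196 calls of MS2 control under input, 1 of the 17 having a single differentiated control library whose spread is assumed to be that of the other groups.

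Values are log2 fold changes. In input, calls were lost with no filter (miR-10a-5p -0.83, miR-196a-5p -0.77), library totals (-0.33, -0.27), TMM within the inputs (-0.16, -0.10, with miR-196b-5p at 0.08), RLE factors (-0.20, -0.13 and 0.05) and DESeq2 (-0.13, -0.08 and 0.09), and for miR-196a-5p with the pair summed (-0.72). Without each library the ranges were -0.91 to -0.70 for miR-10a-5p and -0.87 to -0.64 for miR-196a-5p.

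For bait over MS2 in undifferentiated cells, library totals gave -1.87, 1.32 and -0.16 for miR-10a-5p, miR-196a-5p and miR-196b-5p. The summed miR-196 pair was called (2.57). miR-196b-5p itself gained a call in edgeR (1.55) and with MS2 libraries of few human-named reads (2.12), where miR-10a-5p was at 0.05. Without each library they ranged from 1.04 to 2.12 and from -0.57 to 0.05. For the difference between states, calls were gained for miR-10a-5p with pseudocount 50 (-1.49) and RLE (-2.35), and for miR-196b-5p with pseudocount 50 (2.29), few human-named reads (4.05, with differentiated MS2 library C alone in its arm) and without differentiated MS2 library A (3.61). Without each library in turn miR-196b-5p ranged from 2.14 to 3.61.

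For bait over input in undifferentiated cells, miR-196b-5p lost its call with pseudocount 1 (-2.18) and RLE (-0.86), and the summed pair was not called (-1.23). miR-196a-5p gained a call with library totals (-1.90) and only the groups compared (-0.99), and was at 0.29 with RLE and 0.29 in DESeq2. In differentiated cells miR-196a-5p gained calls with pseudocount 50 (1.06), edgeR (1.09), DESeq2 (1.01) and only the groups compared (1.08; miR-196b-5p 0.61), and library totals gave -0.10 and, for miR-196b-5p, -0.56. For MS2 over input there, miR-10a-5p was at 0.02 with RLE, 0.07 in DESeq2 and -1.14 to -0.59 without each library.

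Between the bait eluates, miR-196b-5p lost its call with pseudocount 1 (2.20), no filter (2.13), library totals (2.29), RLE (1.72) and each library left out (2.03 to 2.31). The summed pair was not called (1.47), and miR-196a-5p gained a call in edgeR (1.31) and with only the groups compared (1.30). For the added difference of bait against input, miR-196b-5p lost its call with pseudocount 1 (2.80), no filter (2.72), library totals (2.38), RLE (1.39) and each library left out (2.52 to 2.90). The summed pair was not called there (2.19). miR-196a-5p gained a call with pseudocount 50 (2.02), edgeR (2.09) and only the groups compared (2.08), and miR-10a-5p was at -0.05 with library totals, -1.05 with RLE, -1.18 in DESeq2 and -0.04 to 0.57 without each library.

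Over all names, the calls of the difference between states for bait against MS2, 22 as reported, were 11 and 38 with pseudocounts 1 and 50, 2 with no filter, 14 with library totals, 0 in edgeR, 13 in DESeq2, 13 with few human-named reads, and 8, 4, 14 and 5 without differentiated bait B, differentiated MS2 B, differentiated bait C and undifferentiated MS2 C. Those of the added difference, 62 as reported, were 22 with pseudocount 1, 39 with no filter, 24 with library totals, 21 with RLE, 118 with only the groups compared and 37 to 38 without differentiated input A or C or undifferentiated input C. Bait over input in differentiated cells gave 307 calls with no filter, against 189, and the bait eluates 100 with only the groups compared, against 65. Scaling moved the median of all names from -0.64 to -0.08 in input (TMM within the inputs) and, with library totals, from 1.16 to -0.25 and from 2.37 to 1.18 for bait over MS2.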

Other observations

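By Pearson correlation of log2(CPM + 10) over the 18 libraries, the names most like miR-10a-5p were miR-145a-5p (0.920), miR-574-3p (0.895) and miR-21c (0.892). Those most like miR-196a-5p were let-7f-2-3p (0.926), miR-193a-3p (0.914) and miR-193b-3p (0.888), and those most like miR-196b-5p were let-7a-1-3p (0.910), let-7c-2-3p (0.903) and let-7f-2-3p (0.889). For miR-10b-5p no name passed 0.542. These are descriptions over libraries that share 3 kinds of preparation and 2 states, and each member was set beside 303 or 304 other names.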
